A study of Mus musculus with 8 samples.

Results

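The piRNA loci of 5 head-to-head pairs on mouse chromosomes 4, 5, 12 and 15 were followed. They are 10 loci out of the 94 named for a chromosome band and the 114 named for a gene that make up the deposited tables. Each pair consists of a locus on the minus strand and a locus on the plus strand that point away from each other and whose 5′ ends lie 383 bp apart or less. The members were given by name and were located by those names in both tables, and all 10 passed the filter on low counts. The tables hold 12 divergent pairs in all (opposite strands, 5′ ends within 1000 bp), so 7 pairs, or 14 loci, serve as the comparison.

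PIWI-interacting RNAs (piRNAs) are small RNAs that load onto PIWI proteins in germ cells. In the adult mouse testis most of them are cut from long single-stranded precursor transcripts made at the pachytene stage of meiosis. Many of these precursor genes are arranged as divergent pairs around a shared promoter, and the transcription factor MYBL1 (A-MYB) is known to drive them. The 2 arms of a pair therefore share their place of initiation but not their transcript, and each arm has its own piRNA output.

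Testis RNA of adult mice of 2 genotypes was compared. Exd2∆ mice were made on the C57BL6 background by Cas9 editing of embryos, which took out the 3' end of exon 2 of Exd2 and some of the next intron, and Exd2+/+ mice were the controls. Exd2 encodes an exonuclease domain-containing protein, and the study asked how its loss bears on piRNA production. Each genotype has 2 replicates in small RNA-seq and 2 in long RNA-seq of rRNA-depleted RNA, 8 libraries that the submitters call biological replicates. Whole testis was used, so fewer cells of a type and less RNA per cell cannot be told apart. Exd2 is not among the loci of the tables and no cell type marker is either, so neither the genotype nor the cell makeup could be checked against these tables.

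Small RNA libraries held 28408830 to 37660202 estimated counts over all loci and long RNA libraries 960909 to 1842625. The lowest count of any member was 9771 among the small and 3425 among the long RNA libraries, which gives a counting error of 1.01% and 1.71%, for sampling of reads only. The words piRNA and precursor are used here for every small RNA and every long RNA read assigned to a locus, mRNA included. CPM are counts relative to library size, scaled by TMM, a method that lines up libraries on the bulk of their loci. Library size here is the total over the loci of the tables, not all reads sequenced. A gain or loss shared by all loci would therefore not show in CPM or fold changes. A call is a Benjamini-Hochberg adjusted p below 0.05 over all loci in edgeR's quasi-likelihood test.

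The pair 12-qE joins 12-qE-23911.2 (GRCm38 chromosome 12, 98378944 to 98420048, minus strand) to 12-qE-7089.2 (98420147 to 98455965, plus strand), with 98 bases between the 5′ ends. 12-qE-23911.2 overlaps no GENCODE M21 gene. The far part of 12-qE-7089.2, 74.1% of its span, lies antisense to Kcnk10, which encodes a potassium channel. The pair 15-qD1 joins 15-qD1-17920.3 (chromosome 15, 59247365 to 59275222, minus), which overlaps no annotated gene, to 15-qD1-4001.3 (59275366 to 59312014, plus), with 143 bases between them. The lincRNA gene Gm36617 starts 30 bases into 15-qD1-4001.3 on the same strand, and the pseudogene Zfp572 lies near its end. The pair 5-qF joins 5-qF-14508.2 (chromosome 5, 113320454 to 113340095, minus) to 5-qF-14224.2 (113340137 to 113376874, plus), with 41 bases between them. 5-qF-14224.2 holds the small coding gene Aym1 over 1.44% of its span. Also annotated in 5-qF-14508.2 are 4930405N21Rik on the same strand (6.11% of the span) and Gm43353 on the opposite strand (6.59%). 12-qE-7089.2 also overlaps 5330409N07Rik on the opposite strand (9.82%).

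The pair 4-qB3 is the shortest, with 4-qB3-639.1 (chromosome 4, 62220597 to 62230936, minus) and 4-qB3-277.1 (62231005 to 62239341, plus) and 68 bases between them. 4-qB3-639.1 lies wholly within Zfp37, a zinc finger protein gene on the same strand, whose exons cover 2.20% of its span. Zfp37 also overlaps the first 43 bases of 4-qB3-277.1, on the opposite strand. The last pair joins pi-1700016M24Rik.2 (chromosome 15, 74606028 to 74636770, minus) to 15-qD3-14639.3 (74636387 to 74658911, plus). Here the loci overlap by 384 bp at their 5′ ends, 1.25% and 1.70% of their spans. 1700016M24Rik is an older symbol of Mroh4, a protein-coding gene that takes 98.6% of the span of pi-1700016M24Rik.2, with exons over 13.2% of it. 15-qD3-14639.3 overlaps no annotated gene. No other locus of the tables overlaps a member or starts within 10 kb of one.

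**Figure D1:**
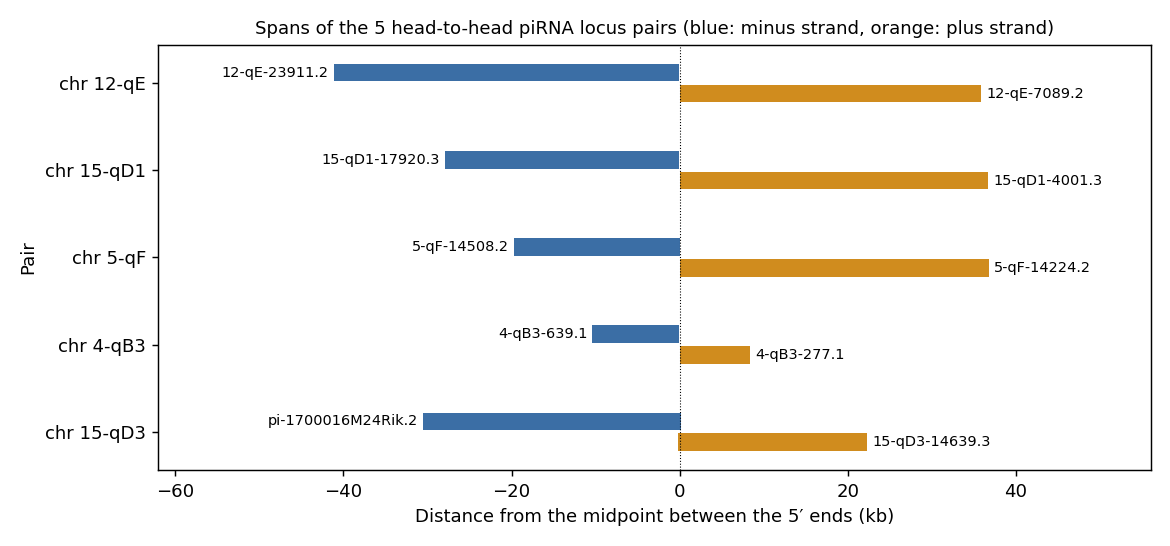
The spans of the 10 loci, drawn to scale, with distance from the midpoint between the 5′ ends of each pair in kb on the x axis and 1 pair per row, minus-strand loci in blue and plus-strand loci in orange. The 4-qB3 arms are the shortest (10.3 and 8.34 kb), and only the last pair overlaps at its 5′ ends.

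Sequence from the reference tables reached only the 4-qB3 pair. A RefSeq promoter window of 300 bases on GRCm38.p6, on the minus strand, belongs to the lncRNA gene LOC108168693 and spans the 5′ ends of both arms. It was searched for the NF-Y box (CCAAT) and the TATA box (TATAAA) on both strands, and held 1 NF-Y box and no TATA box. The NF-Y box lies at 62230929 to 62230933, just inside 4-qB3-639.1 and within the annotated span of Zfp37. It is given in capitals within 30 bases of the minus strand, where it reads ATTGG, so CCAAT itself lies on the plus strand. No other pair could be shown.
4-qB3, NF-Y box, chr4:62230916-62230945: tactcgtgcaggATTGGttgtcagccccct

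Of 32817 RefSeq promoter windows of this length, 37.4% hold the NF-Y box and 13.6% the TATA box, so a match by itself is common. It is a description of letters and not a bound site. The window had a GC content of 48.3% against a median of 52.7% over all promoters, and 10 CpG against a median of 7.

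One member also holds annotated microRNAs, whose small RNA reads fall on the same strand as the locus and are counted with its piRNAs if the counting did not set them apart. 5-qF-14508.2 contains the hairpins of Mir7230 and Mir7229. The 5p arms start 2450 and 15550 bases from the 5′ end of the locus. Their mature sequences from RefSeq follow, with the seed (bases 2 to 8) in capitals, and no 2 of the 4 share a seed.
mmu-miR-7230-5p: aGACUGCUguuucucugaguggc
mmu-miR-7230-3p: uUGAGUUGagacugucaguaggu
mmu-miR-7229-5p: uAGUAGACaucccuggauagc
mmu-miR-7229-3p: uACACAGAccagugacuuucugca

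In Exd2+/+ testis the 10 loci took 17.3% ± 0.0908 of the small RNA counts over all loci and 11.4% ± 0.0495 of the long RNA counts over all loci (SD, n = 2 each). In Exd2∆ they took 16.7% ± 0.118 of the small RNA counts, and 10.8% and 11.2% of the long RNA counts in the 2 libraries. Per kb of span, 15-qD3-14639.3 was the richest in piRNAs, at 1213 ± 5.55 CPM per kb in Exd2+/+ (SD, n = 2), followed by 5-qF-14508.2 at 1125 ± 9.34 and 12-qE-23911.2 at 1042 ± 31.8. These hold places 5, 8 and 9 among all loci. The Exd2+/+ libraries of 5-qF-14508.2 and 12-qE-23911.2 did not overlap in this level, nor did those of 12-qE-23911.2 and the next, 15-qD1-17920.3 (968 ± 5.98). The others were 4-qB3-277.1 (698 ± 22.0), 5-qF-14224.2 (676 ± 8.92), 4-qB3-639.1 (642 ± 24.9), 12-qE-7089.2 (318 ± 7.06) and 15-qD1-4001.3 (191 ± 0.196). The first 2 of these lay close, with the lower library of the one at 683 and the higher library of the other at 682 CPM per kb, and no neighbours in this order overlapped between libraries. At the other end pi-1700016M24Rik.2 gave 10.8 ± 0.391 CPM per kb. Per kb its precursor was the highest of the 10, at 762 ± 74.4, and the lowest precursor was that of 15-qD1-4001.3 at 159 ± 5.06. The other 8 precursors lay between 305 and 468 CPM per kb. Spans count introns, so where a precursor is spliced these levels understate it.

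**Figure D2:**
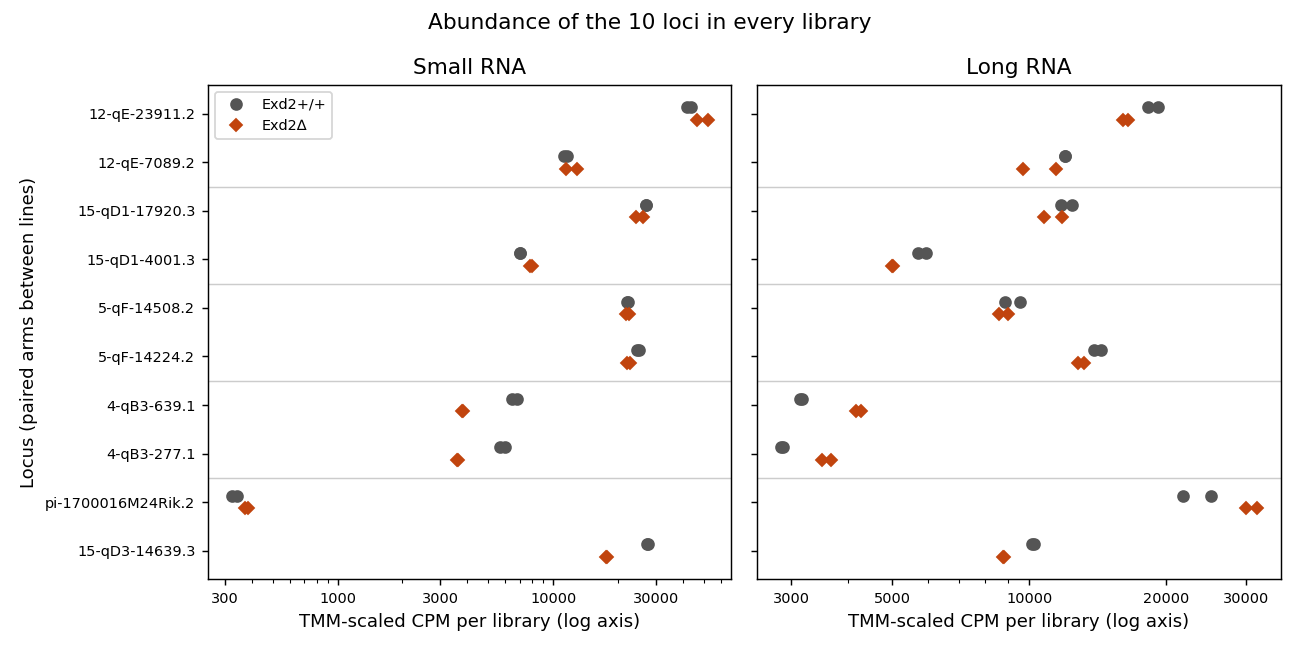
TMM-scaled CPM of each locus in each library on a log x axis (small RNA left, long RNA right), with circles for the 2 Exd2+/+ and diamonds for the 2 Exd2∆ libraries and paired arms between lines. The 4-qB3 arms lie lower in Exd2∆ in small RNA and higher in long RNA, while the 15-qD3 arms part from each other.

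How unequal the 2 arms were differed between pairs, in small RNA from nearly even at 4-qB3 to far apart at 15-qD3. The arm favoured in precursor was not always the one favoured in piRNAs. Whether the arms of a pair were equal was not tested. The ratio of the arms was taken within each library, so it does not depend on library scaling, and it was compared between assays with limma over the 12 divergent pairs (adjusted over those pairs). In Exd2+/+ the ratio in small RNA differed from that in long RNA at 4 of the 5 pairs, against 11 of all 12, or 91.7%. A difference between assays was thus the common case for divergent pairs.

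At 12-qE the minus arm 12-qE-23911.2 held 3.74 and 3.78 times the small RNA counts of 12-qE-7089.2 in the 2 Exd2+/+ libraries. In long RNA it held 1.60 and 1.53 times as many. The piRNA imbalance thus exceeded that of the precursors by 2.40-fold (log2 plus over minus arm, small minus long RNA, -1.27 ± 0.07 SE, limma adjusted p = 1.08e-06). At 15-qD1 the minus arm 15-qD1-17920.3 was the larger as well, 3.82 and 3.86 times in small and 2.09 and 2.06 times in long RNA. The difference between assays was 1.85-fold toward the minus arm (-0.89 ± 0.06, limma adjusted p = 4.92e-06). Per kb of span these minus arms were ahead by 3.28-fold at 12-qE and 5.06-fold at 15-qD1 in piRNAs.

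The 5-qF arms were closer. The plus arm 5-qF-14224.2 held 1.13 and 1.12 times the small RNA counts of 5-qF-14508.2, and 1.51 and 1.57 times its long RNA counts. Relative to precursor, piRNAs were again shifted to the minus arm, by 1.37-fold (-0.45 ± 0.05, limma adjusted p = 5.69e-05). Counted per kb of span, the order turned: the minus arm 5-qF-14508.2 was ahead by 1.66-fold in small and 1.22-fold in long RNA. The 4-qB3 arms were also nearly even in both assays. 4-qB3-639.1 held 1.13 and 1.15 times the small RNA counts of 4-qB3-277.1 and 1.10 times its long RNA counts in both libraries, and the assays were not told apart (-0.05 ± 0.04, limma adjusted p = 0.216).

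The 15-qD3 pair was the extreme case. The plus arm 15-qD3-14639.3 held 79.9 and 84.7 times the small RNA counts of pi-1700016M24Rik.2 in Exd2+/+. In long RNA the order was the opposite, with 2.13 and 2.47 times more counts at pi-1700016M24Rik.2. The difference between assays came to 189-fold (log2 7.56 ± 0.08, limma adjusted p = 8.03e-11), and the largest among the 7 other divergent pairs was 14.3-fold. pi-1700016M24Rik.2 was first of all loci in long RNA CPM in Exd2+/+ and place 104 in small RNA. Its small RNA CPM was 0.0142 of its long RNA CPM, against a median of 0.0250 for the 114 gene-named loci and 0.863 for the 94 band-named loci. The same quotient for the other 9 members ran from 0.952 at 12-qE-7089.2 to 2.68 at 15-qD3-14639.3. How much of the long RNA at pi-1700016M24Rik.2 was Mroh4 mRNA was not tested.

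**Figure D3:**
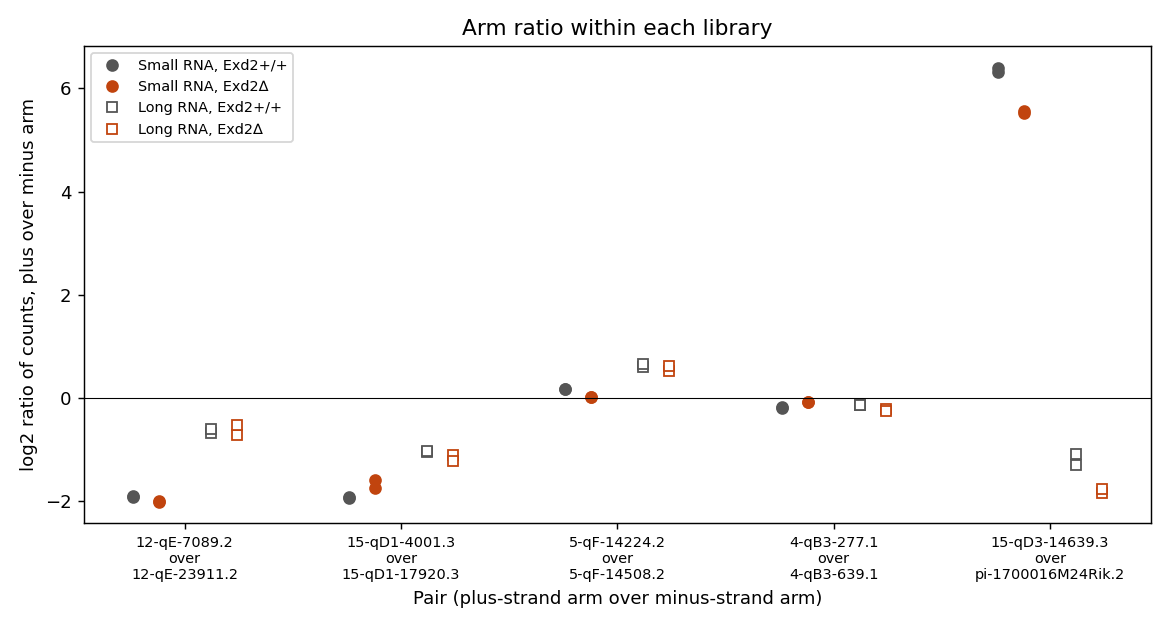
Log2 ratio of the counts of the plus-strand arm to those of the minus-strand arm in each library, with pairs on the x axis, filled circles for small and open squares for long RNA, grey for Exd2+/+ and orange for Exd2∆. The 15-qD3 pair stands at 6.32 and 6.40 in small and -1.09 and -1.31 in long RNA in Exd2+/+, while the other pairs lie between -2.02 and 0.65 in all libraries.

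In Exd2∆ testis piRNAs rose at 2 of the 10 loci and fell at 4, and 4 were not called (edgeR quasi-likelihood). Over all loci 64.9% were called, 33.2% higher and 31.7% lower, so 6 of 10 is close to the background. In long RNA 1 of the 10 rose and 9 were not called, against 7.69% called over all loci, 6.73% higher and 0.962% lower. The libraries of the genotypes did not overlap at 8 of the 10 in small RNA, beside 79.3% of all loci, and at 8 of the 10 in long RNA, beside 62.5%. At an unadjusted p under 0.05 there were 6 of the 10 in long RNA, beside 29.3% of all loci. DESeq2 called 4 of the 10 in small RNA, all lower, where it called 62% of all loci, 31.2% lower. In long RNA it called 3 of the 10, all higher, where it called 18.8% of all loci, 13.5% higher. Long RNA calls depended on the library: edgeR called 3 members higher and 4 lower without Exd2∆ replicate 2 (105 of all loci), 3 higher and 1 lower without Exd2∆ replicate 1 (60 of all loci), and none of the members or other loci without either Exd2+/+ replicate. Taken without sign, the members' log2 fold changes had a median of 0.18 in small and 0.21 in long RNA, beside 0.34 and 0.16 over all loci.

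The 4-qB3 arms lost piRNAs together. 4-qB3-639.1 measured 6458 and 6823 CPM in Exd2+/+ and 3791 and 3824 CPM in Exd2∆, and 4-qB3-277.1 measured 5693 and 5952 against 3584 and 3630 CPM. In both arms the Exd2∆ libraries lie below both Exd2+/+ libraries with a wide gap. The log2 fold changes were -0.80 ± 0.05 and -0.69 ± 0.05 (SE; adjusted p = 1.61e-06 and 3.69e-06, edgeR quasi-likelihood), which is -42.7% and -38.1% in mean CPM. Small over long RNA CPM went from 2.11 to 0.904 at 4-qB3-639.1 and from 2.03 to 1.01 at 4-qB3-277.1.

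Their precursors stood the other way, and that of the minus arm rose. In long RNA 4-qB3-639.1 measured 3138 and 3163 CPM in Exd2+/+ and 4266 and 4158 CPM in Exd2∆, a log2 fold change of 0.42 ± 0.08 (adjusted p = 0.0446, edgeR quasi-likelihood). This call was lost at scaling to the library total (0.36, adjusted p = 0.0699) and without either Exd2+/+ long RNA library (0.41 and 0.42, adjusted p = 0.589 and 0.461, edgeR quasi-likelihood). Its partner 4-qB3-277.1 measured 2848 and 2878 CPM against 3676 and 3496 CPM, with no overlap, but missed the threshold (0.32 ± 0.09, adjusted p = 0.0883), though DESeq2 called it (0.32, adjusted p = 0.0109). How much of the long RNA at 4-qB3-639.1 was Zfp37 RNA was not tested. The small RNA effect was lower than the long RNA effect in both arms (interaction of assay and genotype, small minus long RNA, -1.22 ± 0.10 and -1.02 ± 0.11 log2 units, adjusted p = 3.02e-05 and 1.05e-04, edgeR quasi-likelihood over all 8 libraries).

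The arms of the 15-qD3 pair parted in small RNA. 15-qD3-14639.3 fell from 27235 and 27411 CPM in Exd2+/+ to 17543 and 17695 CPM in Exd2∆, a gap with no overlap and a log2 fold change of -0.63 ± 0.05 (adjusted p = 8.13e-06, edgeR quasi-likelihood). Its neighbour pi-1700016M24Rik.2 measured 341 and 324 CPM against 371 and 385 CPM and was not called (0.19 ± 0.09, adjusted p = 0.0844). The arm ratio within libraries dropped from 79.9 and 84.7 in Exd2+/+ to 47.3 and 46.0 in Exd2∆ (-0.82 ± 0.04 log2 units, limma adjusted p = 0.00181).

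The precursor ratio of this pair shifted to the minus arm as well. 15-qD3-14639.3 measured 10229 and 10124 CPM in Exd2+/+ and 8748 and 8782 CPM in Exd2∆ (-0.22 ± 0.07, adjusted p = 0.122). pi-1700016M24Rik.2 measured 21809 and 25043 CPM against 31606 and 29980 CPM, so both Exd2∆ libraries lie above both Exd2+/+ libraries (0.39 ± 0.10, adjusted p = 0.0836, both edgeR quasi-likelihood; DESeq2 called it at adjusted p = 0.00879). Neither arm was called by edgeR, yet their ratio was: the plus arm held 31.9% and 28.8% of the pair's long RNA counts in Exd2+/+ and 21.7% and 22.7% in Exd2∆ (-0.61 ± 0.08 log2 units, limma adjusted p = 0.00248). This was the only one of the 5 pairs whose precursor ratio passed the test, against 33.3% of all 12, and the call was lost without Exd2∆ long RNA replicate 1 (-0.57, limma adjusted p = 0.0554). Without that library the 15-qD1 precursor ratio passed instead (-0.18, limma adjusted p = 0.0427). At 15-qD3-14639.3 piRNAs fell further than precursor (interaction -0.42 ± 0.07, adjusted p = 0.00122, edgeR quasi-likelihood).

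The 12-qE, 15-qD1 and 5-qF pairs differed between genotypes by much less. 12-qE-23911.2 measured 41926 and 43772 CPM of piRNA in Exd2+/+ and 52114 and 46494 CPM in Exd2∆ (0.20 ± 0.07, adjusted p = 0.0323, edgeR quasi-likelihood). This rise missed the threshold under 6 of 11 other settings, with DESeq2 (adjusted p = 0.0567) and without 3 of the 4 libraries among them. Without Exd2∆ small RNA replicate 1 the log2 fold change was 0.11 (adjusted p = 0.130, edgeR quasi-likelihood). 12-qE-7089.2 measured 11218 and 11576 against 12919 and 11488 CPM, which overlap (0.10 ± 0.06, adjusted p = 0.209), and was called higher at library total scaling (0.14, adjusted p = 0.0246) and without Exd2∆ small RNA replicate 2 (0.17, adjusted p = 0.0370). Precursor values stood at -0.20 ± 0.08 and -0.18 ± 0.10 in the 2 arms and were not called (adjusted p = 0.159 and 0.307). At 12-qE-23911.2 the assays differed by 0.41 ± 0.09 (interaction, adjusted p = 0.00603, edgeR quasi-likelihood).

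At 15-qD1 the minus arm was not called and the plus arm was. 15-qD1-17920.3 measured 26848 and 27083 CPM of piRNA in Exd2+/+ and 26218 and 24194 CPM in Exd2∆ (-0.10 ± 0.06, adjusted p = 0.191, edgeR quasi-likelihood). It was called lower with RLE scaling (-0.13, adjusted p = 0.0372) and without Exd2∆ small RNA replicate 1 (-0.16, adjusted p = 0.0203), so the contrast between the arms depends on the setting. 15-qD1-4001.3 rose from 7021 and 7011 to 7796 and 7976 CPM (0.17 ± 0.05, adjusted p = 0.0132), a call that DESeq2 did not make (adjusted p = 0.0814) and that was lost without either Exd2+/+ small RNA library (adjusted p = 0.119 and 0.134). Its precursor stood at -0.21 ± 0.08 (5944 and 5682 against 4998 and 5021 CPM, adjusted p = 0.157). The assays differed at this arm by 0.38 ± 0.09 (interaction, adjusted p = 0.00759, edgeR quasi-likelihood).

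At 5-qF the plus arm fell slightly in piRNAs. 5-qF-14224.2 measured 25070 and 24607 CPM in Exd2+/+ and 22768 and 22120 CPM in Exd2∆ (-0.15 ± 0.05, adjusted p = 0.0402, edgeR quasi-likelihood), a call lost without either Exd2+/+ small RNA library (adjusted p = 0.343 and 0.253), at library total scaling (adjusted p = 0.0696) and with the replicate number as a block (adjusted p = 0.114). 5-qF-14508.2, the arm with the annotated microRNAs, measured 22224 and 21965 against 22528 and 21831 CPM, which overlap (0.01 ± 0.05, adjusted p = 0.939). Precursor values of the minus and plus arm were -0.07 ± 0.08 and -0.12 ± 0.07 (adjusted p = 0.603 and 0.344).

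**Figure D4:**
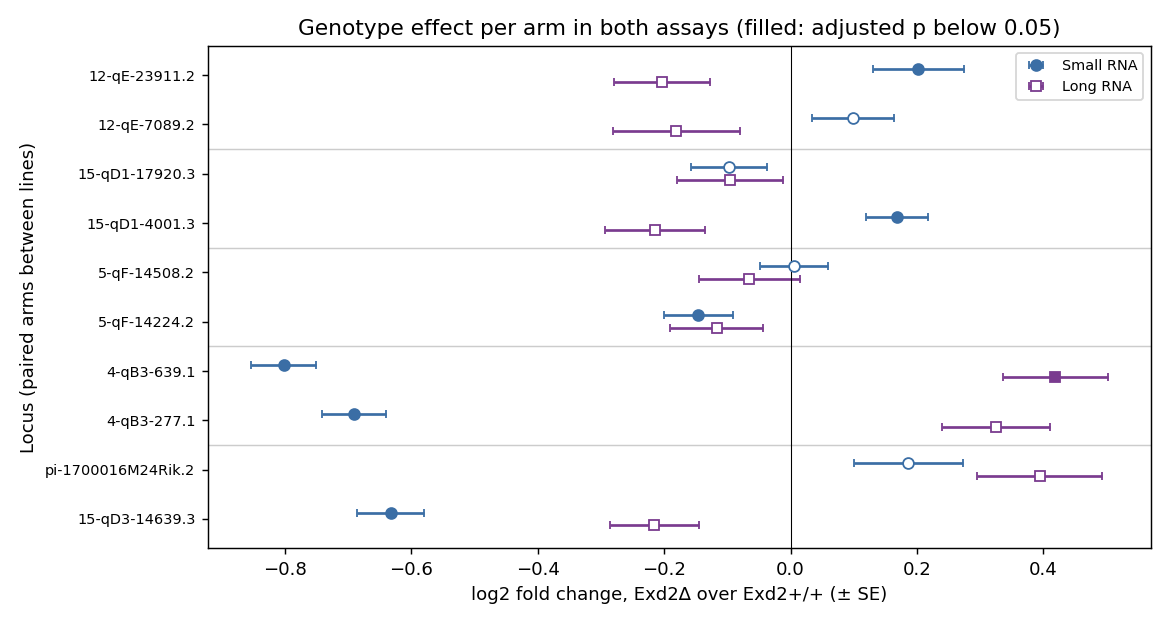
Log2 fold change of Exd2∆ over Exd2+/+ with its standard error for each locus (x axis), in small RNA (circles) and long RNA (squares), filled where the adjusted p was below 0.05 and with paired arms between lines. Both 4-qB3 arms lie at -0.80 and -0.69 in small and at 0.42 and 0.32 in long RNA, while the 15-qD3 arms lie on opposite sides of 0 in both assays.

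The genotype changed the small RNA arm ratio at all 5 pairs in the limma fit, against 9 of the 12 divergent pairs, or 75%. Apart from the 15-qD3 pair these shifts were small. Toward the plus arm, 15-qD1 moved by 0.27 ± 0.06 and 4-qB3 by 0.11 ± 0.02 log2 units (adjusted p = 0.0289 and 0.0195). Toward the minus arm, 5-qF moved by -0.15 ± 0.02 and 12-qE by -0.10 ± 0.02 (adjusted p = 0.00940 and 0.0213). In each of the 4 the Exd2∆ ratios lie outside the Exd2+/+ ratios. How often such a gap occurred among all 12 divergent pairs was not counted in either assay, so it is not read as a result. For the CPM of single loci, the genotypes did not overlap at 79.3% of all loci in small RNA and 62.5% in long RNA. For 5-qF the plus arm held 53.0% and 52.8% of the pair's piRNA counts in Exd2+/+ and 50.3% in both Exd2∆ libraries. The 12-qE, 5-qF and 4-qB3 calls were lost without either Exd2∆ library and the 15-qD1 call without either Exd2+/+ library. With the replicate number as a block only the 15-qD3 pair stayed called (1 of 5), beside 5 of all 12 divergent pairs. In long RNA the ratios of these 4 pairs moved by -0.12 to 0.02 and were not called (lowest limma adjusted p = 0.193). At 15-qD1 and 4-qB3 the long RNA ratios of the genotypes did not overlap either, while at 12-qE and 5-qF they did. The median absolute shift in small RNA was 0.15 over the 5 pairs and 0.38 over the 7 other divergent pairs. An exact permutation test of 2 against 2 libraries cannot go below p = 0.333 for a single pair, so these p-values rest on the variance that limma shares over the 12 pairs.

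The genotype effect differed between assays at 5 of the 10 loci, and was higher in small than in long RNA at 2 of them and lower at 3, against 51.9% of all loci (interaction, edgeR quasi-likelihood). Both arms were called in the 4-qB3 pair, 1 arm in the 12-qE, 15-qD1 and 15-qD3 pairs, and none in the 5-qF pair. The uncalled arms were 12-qE-7089.2 (0.28 ± 0.13), 15-qD1-17920.3 (-0.00 ± 0.09), 5-qF-14508.2 (0.07 ± 0.08), 5-qF-14224.2 (-0.03 ± 0.07) and pi-1700016M24Rik.2 (-0.21 ± 0.11).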

How the data were processed

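Per the labels' protocols, small RNA came from a gel loaded with 10 µg of testis RNA and long RNA libraries from 1 µg with a directional kit, both read single-end to 50 nt. The submitters' processing notes name GRCm38, STAR, cutadapt and edgeR. No version, counting program, strand option or treatment of reads with several alignments is given in the sources used here. The authors deposited estimated counts per locus, not scaled to library size, in multiples of 1/2520 (tolerance 0.001), so repeated sequence makes counts less certain. If strand was not used in counting, loci or genes that overlap on opposite strands share reads. The authors' deposited log2 fold changes and adjusted p-values, per the file headers, were not used in tests. No value column was left unmatched (0).

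Estimated counts were rounded. The test was edgeR 4.0.16 under R 4.3.3 (filterByExpr, which removed no locus, TMM, glmQLFit with its legacy option, the choice of an earlier analysis of these tables). The SE is the log2 fold change divided by the square root of F. Arm ratios (log2, pseudocount 0.5 counts) were tested with limma 3.58.1. DESeq2 1.42.0, other scalings and filters, a replicate block and each library left out were alternatives. The text names all 10 members. Members, lists and tests were chosen with earlier results of these data known. The labels do not say which animals gave which libraries, so p-values measure the spread between libraries. Sequence windows at the starts of all loci were planned as the motif background; RefSeq promoters were used instead, and 1 planned motif is not reported here. Small and long RNA libraries with the same number were not treated as the same animal.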

Additional observations from a re-analysis of the deposited data

Results flagged for a closer look

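At 5 of the 10 loci the genotype effect in small RNA differed from that in long RNA by the interaction test (edgeR quasi-likelihood, Benjamini-Hochberg adjusted over all loci), which 51.9% of all loci passed. The differences, small minus long RNA on the log2 scale, were -1.22 at 4-qB3-639.1 (adjusted p = 3.02e-05), -1.02 at 4-qB3-277.1 (adjusted p = 1.05e-04), -0.42 at 15-qD3-14639.3 (adjusted p = 0.00122), 0.41 at 12-qE-23911.2 (adjusted p = 0.00603) and 0.38 at 15-qD1-4001.3 (adjusted p = 0.00759). All 5 stayed called, with the same sign, under the 14 other settings run for the interaction.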

How the results depend on the processing

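The calls of lower piRNAs at 4-qB3-639.1, 4-qB3-277.1 and 15-qD3-14639.3 held under all 11 other settings (log2 fold changes from -0.84 to -0.76, -0.72 to -0.64 and -0.66 to -0.59). The number of members called in small RNA, 6, went to 3 to 7 with 1 library left out, and in long RNA, 1, to 0 to 7, with 7 without Exd2∆ replicate 2, 4 without Exd2∆ replicate 1 and 0 without either Exd2+/+ replicate. Small RNA calls over all loci, 135, fell with any 1 small RNA library left out. They fell further without an Exd2+/+ library than without an Exd2∆ library. Members called in long RNA were 0 at library total scaling, beside 15 of all loci, and 3 with DESeq2. Over all loci long RNA calls were 16, against 39 with DESeq2, 38 with the replicate block and 0, 0, 60 and 105 with 1 library left out. The number of pairs with a shifted small RNA arm ratio, 5, fell to 1 with the replicate block, beside 5 of all 12 divergent pairs. It also fell with any 1 library left out, as did the number over all 12 divergent pairs.

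Signs turned for values near 0. 5-qF-14508.2 in small RNA stood at -0.026 with RLE, -0.026 with DESeq2, and between -0.026 and 0.021 with 1 library left out. Its partner's interaction (5-qF-14224.2) was 0.076 at library total scaling, and that of 15-qD1-17920.3 was 0.10 there and from -0.069 to 0.059 with 1 library left out. The long RNA arm ratio of 12-qE ranged from -0.085 to 0.12 and that of 5-qF from -0.11 to 0.00097 with 1 library left out. The cause was not tested.

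Replicate numbers do not pair the libraries by any label. Same-numbered libraries deviated together with r = 0.03 in small and 0.34 in long RNA (across loci, which are not independent). With the block 4 of 10 members were called in small RNA, 1 in long RNA and 5 in the interaction, beside 118, 38 and 117 of all loci. No divergent pair starts more than 383 bp apart, so the alternative with a smaller start distance equals the fit as reported. With 2 libraries per group, small changes are at the limit of what these tables resolve.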
